A study of Bos taurus with 6 samples.

Results

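The assembled sequences described here are the cattle scaffolds of UMD3.1.1 that carry a sequence name beginning with NW_, the RefSeq prefix for scaffolds, and that hold 100 or more reads over all CpGs of 6 whole-genome bisulfite sequencing (WGBS) libraries. Of 2800 sequences in the files, 2769 had such a name, and 1530 of these passed the read minimum. The files hold no table of placement, so that the term unplaced rests on the name alone and on the 29 autosomes and the X chromosome being listed under names of their own. An unplaced scaffold is a stretch of assembled sequence that could not be assigned to a position on a chromosome. Such scaffolds are often short and rich in repeats, because repeat copies that resemble each other are hard to assemble. In cattle, centromeres are made of satellite DNA, which consists of long arrays of tandem copies, and several bovine satellite families are built from shorter internal repeats. In somatic cells of mammals, CpGs in repeats are usually methylated.

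The cells were rumen epithelial primary cells (REPC), cultured from the lining of the first stomach chamber of 1 Holstein bull calf that was 2 weeks old and had been fed milk replacer only. Control cells (3 libraries) were compared with cells given 5 mM butyrate for 24 h (3 libraries). Butyrate is a short-chain fatty acid of rumen fermentation and an inhibitor of histone deacetylases. All libraries came from the same calf, so that the spread between replicates may be technical and p-values measure only that spread.

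Bisulfite converts cytosines that carry no methyl group, and those still read as C were counted as methylated. A CpG row is 1 cytosine of a CpG with a read in at least 1 library, with the strands as separate rows. The methylation level is the methylated share of reads. The libraries held 18793438 to 23842285 reads over all CpGs, of which 362644 to 466389 fell on the 1530 scaffolds. At this depth the 95% Wilson interval of a library's scaffold level was at most 0.159 percentage points to either side. Such an interval holds only the error of counting, and duplicates or neighbouring CpGs on a read make it too narrow. Butyrate replicates 1 and 3 were sequenced on lane 5, and butyrate replicate 2 and all controls on lane 6.

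The scaffolds were short, unequal in depth and unequal in methylation. Their last CpG row lay at a median position of 1556.5 bp (range 297 to 179675 bp), and the median scaffold had 767.5 reads over the 6 libraries. Together they held 0.746% of all CpG rows and 1.98% of all reads. A small number of them carried much of this, with 10.8% of the scaffold reads on the 10 most deeply read scaffolds and 39.1% on the top 100. The pooled level of single scaffolds ran from 2.91% to 98.3%, with a median of 62.0% and quartiles of 47.4% and 75.3%.

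The 4 scaffolds with most reads were unlike each other in level and alike across libraries. NW_003099614.1 had 50092 reads on 146 CpG rows within 1131 bp, which is 343 reads per row. In the order of the replicate numbers, its level was 16.9%, 18.2% and 17.3% in the controls and 17.8%, 18.4% and 18.4% after butyrate, and later triplets keep that order. This was both the most deeply read scaffold and one of the least methylated, and its groups overlapped. NW_003100092.1 had 41256 reads on 650 rows and levels of 83.2%, 81.4% and 81.1% in control and 82.0%, 82.5% and 82.2% in butyrate. NW_003100515.1 had 29064 reads on 789 rows and levels of 70.4%, 71.9% and 71.4% in control and 70.7%, 71.8% and 71.6% in butyrate. NW_003100510.1 had 25395 reads on 282 rows and levels of 44.5%, 46.7% and 47.8% in control and 47.6%, 46.4% and 44.9% in butyrate. The control and butyrate levels overlapped in all 4, while the gaps between these scaffolds were many times the spread of a group (SD 0.261 to 1.69 points, n = 3).

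Among the 637 scaffolds with at least 1000 reads and 20 CpG rows, the highest pooled levels were those of NW_003100872.1 (93.2%), NW_003100229.1 (92.1%) and NW_003100865.1 (91.8%). These 3 had 2.59 to 3.60 reads per row, close to the autosomal mean of 3.27. The lowest levels were those of NW_003099194.1 (5.82%, 1100 reads on 312 rows), NW_003099614.1 (17.8%) and NW_003100559.1 (21.8%, 1763 reads on 257 rows). NW_003099194.1 was dense in CpGs, with 72.3 rows per 500 bp, and had 3.53 reads per row. Its level was 6.45%, 1.59% and 14.5% in control and 4.43%, 4.49% and 1.90% in butyrate. By reads per row, NW_003099614.1 was followed by NW_003098597.1 with 115 reads per row and a level of 48.7%, and by NW_003101104.1 with 105 reads per row and a level of 74.6%. The lowest reads per row were 2.12 on NW_003100338.1, 2.14 on NW_003100697.1 and 2.35 on NW_003100726.1, whose levels were 69.0%, 70.6% and 86.2%.

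Reads per CpG row were set against the autosomes to ask whether scaffolds were read more deeply than placed sequence. Over the 6 libraries together, scaffold rows had a mean of 8.78 reads and autosomal rows 3.27 reads. The log2 ratio of reads per row had a mean of 1.42 over the 6 libraries, which is given without a test because the read minimum favours deep scaffolds. No read minimum was applied to the set of all 2769 scaffolds, but a scaffold or CpG without any read is absent from the counts. Over this set the log2 ratio was 1.37 and above 0 in 6 of 6 libraries (two-sided exact sign-flip permutation p = 0.03125, the smallest that 6 libraries can give). On the CpG rows of the 1530 scaffolds with a read in every library, which are deep on the autosomes too, it was 0.107. Without the most deeply covered rows of the genome (over 141 reads), it was 1.28. Scaffold by scaffold the picture depended on the read minimum. Of all 2769 scaffolds, 1359 (49.1%) lay above the autosomal mean, which deep rows raise. Their median was 3.20 reads per row, and that of autosomal 100-kb bins was 2.56 (upper quartile 2.83). Of the 1530 chosen by their reads, 69.3% lay above the autosomal mean, and 473 (30.9%) lay above 13.4 reads per row, the 99th percentile of autosomal 100-kb bins. Bins of 100 kb average over far longer stretches than most scaffolds, so that scaffolds and bins are not like measures. Scaffolds took 2.00% of a library's reads in the controls and 1.96% after butyrate, with overlapping groups (exact permutation test, two-sided, p = 0.7, n = 3 per group, where the smallest possible p is 0.1).

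The scaffolds were denser in CpGs than the autosomes. A 500-bp window with at least 1 CpG row held a median of 18 rows on scaffolds and 5 on autosomes. Windows with over 30 rows made up 28.5% of 12722 scaffold windows and 3.82% of autosomal ones, and they held 75.4% of scaffold reads against 35.4% of autosomal reads. Rows were counted only where a read fell, so that deeper sequence shows more of its CpGs. The part of depth in this difference was not tested.

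**Figure D1:**
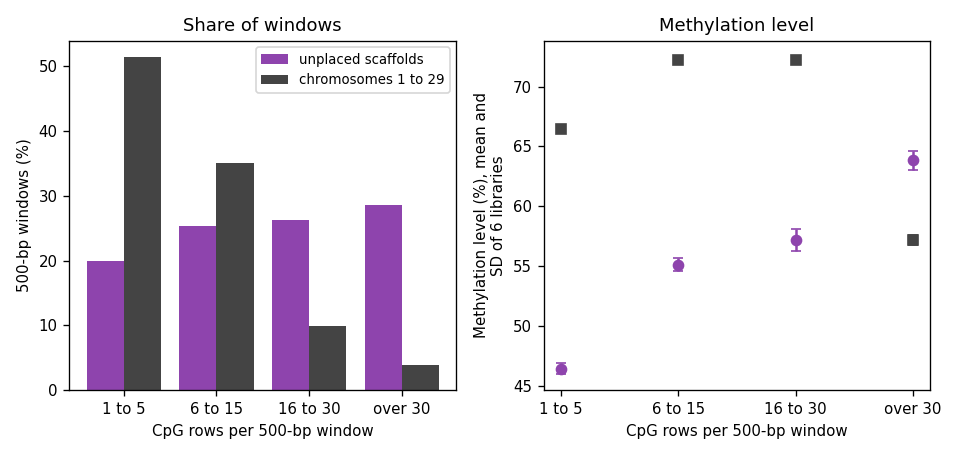
The left panel plots the percentage of 500-bp windows in each class of CpG rows per window for unplaced scaffolds and chromosomes 1 to 29, and the right panel plots the methylation level in each class as the mean and SD of 6 libraries on an axis that does not start at 0. Scaffold levels lay below autosomal levels in the 3 classes with fewer rows (46.4% against 66.5% at 1 to 5 rows). They lay above them in windows with over 30 rows (63.8% against 57.2%). The last window of a scaffold can be shorter than 500 bp.

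The next comparison asked whether the scaffolds were methylated to the level of the autosomes. The scaffold level was below the autosomal level of the same library by 3.43 to 4.76 points, with a mean difference of -4.29 points (two-sided exact sign-flip permutation p = 0.03125, 6 of 6 libraries). The difference was -2.58 points without the most deeply covered rows, -6.68 points on rows read in all 6 libraries and -9.11 points on rows with at least 10 reads in a library. Its direction depended on the number of CpG rows per 500-bp window. The last window of a scaffold was kept though it can be shorter, so that a class of rows does not hold like CpG density. The part of such short windows in the contrasts below was not tested. In windows with 1 to 5 rows the level was 46.4% ± 0.462 (SD, n = 6) on scaffolds and 66.5% ± 0.191 on autosomes. With 6 to 15 rows the levels were 55.1% ± 0.534 and 72.3% ± 0.260, and with 16 to 30 rows they were 57.2% ± 0.887 and 72.2% ± 0.297. In windows with over 30 rows the order turned, with 63.8% ± 0.781 on scaffolds and 57.2% ± 0.442 on autosomes, a difference of 6.63 points. Each of these 4 differences had the same sign in 6 of 6 libraries (two-sided exact sign-flip permutation p = 0.03125 for each, the smallest possible, and the same after Benjamini-Hochberg adjustment over the 4). Weighted by scaffold reads per class, the difference at matched rows per window was +1.16 points (range 0.776 to 1.99 points, two-sided exact sign-flip permutation p = 0.03125). It was 3.98 points without the most deeply covered rows. In autosomes, the level thus fell in the windows with most rows, whereas in scaffolds it rose with each class of rows per window.

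The positions of CpG rows separated the scaffolds into classes that differed in level. For each scaffold with at least 40 rows, the share of rows with another row exactly 23 bp downstream was taken. It was divided by the mean share over distances of 15 to 40 bp, and likewise at 46 bp against 35 to 57 bp. Each mean includes the 23-bp or 46-bp distance itself. Scaffolds with a ratio of 3 or more at 23 bp are called the 23-bp class, and the others with a ratio of 3 or more at 46 bp the 46-bp class. These classes were chosen after the data were seen, use positions but no methylation call, and are described without a test. The 23-bp class had 463 scaffolds and 33.8% of the scaffold reads. The 46-bp class had 497 scaffolds and 25.9% of the reads, 402 scaffolds with 38.5% of the reads were in neither class, and 168 with 1.79% of the reads had too few rows. In the 23-bp class, 43.5% of rows had a row 23 bp downstream, against a median of 3.16% over distances of 10 to 120 bp. The peaks recurred at 46, 68 and 91 bp (36.2%, 31.1% and 29.6%), and the shares at 69 and 92 bp were 28.5% and 23.4%. In the 46-bp class, 59.2% of rows had a row at 46 bp and 44.1% at 92 bp, but only 1.17% at 23 bp and 1.03% at 69 bp. The median over distances of 10 to 120 bp was 6.83% in this class. Lower peaks lay among others at 2, 14 and 32 bp (32.1%, 26.1% and 24.3%). On autosomes the shares at 23 and 46 bp were 5.31% and 4.65%. Close to the threshold, 45 scaffolds had a ratio of 2 to 3 at 23 bp and 23 had a ratio of 3 to 4, and of those under 3 at 23 bp, 29 had a ratio of 2 to 3 at 46 bp and 53 a ratio of 3 to 4.

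**Figure D2:**
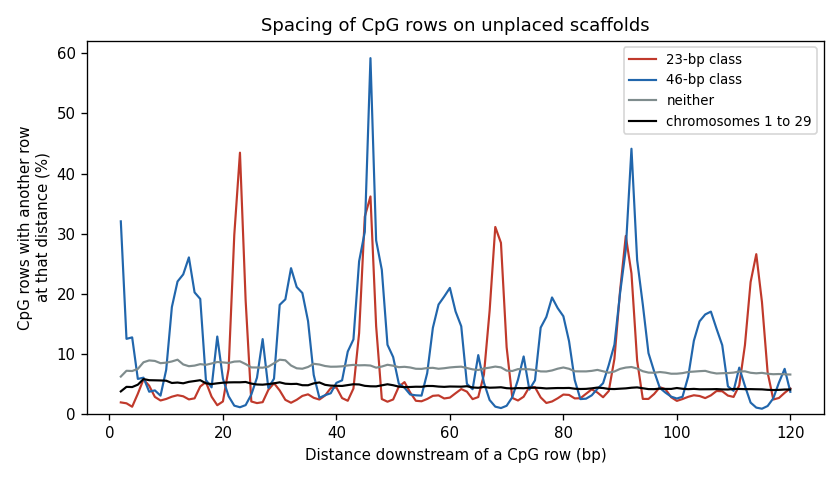
The percentage of CpG rows with another row at a given distance downstream (in bp) is plotted for scaffolds of the 23-bp class, the 46-bp class and neither class and for chromosomes 1 to 29. The 23-bp class peaks at 23 bp (43.5%) and again at 46, 68 and 91 bp. The 46-bp class has its main peaks at 46 bp (59.2%) and 92 bp (44.1%), with lower peaks at other distances. The curves of neither class and of the chromosomes have no such peaks.

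The 23-bp class was deep and methylated to an intermediate level, and the 46-bp class was less deep and more highly methylated. In the 23-bp class the median scaffold had a level of 49.1% (quartiles 44.4% and 54.0%), 17.8 reads per row and a last CpG row at 1219 bp. In the 46-bp class the median scaffold had a level of 76.5% (quartiles 73.6% and 79.3%), 3.38 reads per row and a last CpG row at 2246 bp. Pooled over the reads of a class, the depth was 21.7 reads per row in the 23-bp class and 6.36 in the 46-bp class, both above the autosomal 3.27. Their median densities were 31.9 and 29.8 rows per 500 bp, but at like depth the 46-bp class was the denser one. At 3 to 10 times the autosomal reads per row, the medians were 32.8 rows per 500 bp in the 23-bp class and 58.5 in the 46-bp class, and at 0.75 to 1.5 times they were 23.9 and 28.5. Scaffolds in neither class had a median level of 66.1% (quartiles 54.1% and 72.9%) and 3.22 reads per row, and those with too few rows had a median level of 39.0%. Of the 534 scaffolds with a level of 40 to 60%, 379 were in the 23-bp class and 7 in the 46-bp class. Of the 469 with a level of 70 to 80%, 371 were in the 46-bp class and 0 in the 23-bp class. By comparison, 27.1% of autosomal 100-kb bins had a level of 40 to 60% and 24.6% a level of 70 to 80%. These bins are far longer than most scaffolds, so that the spread of their levels is not a like measure.

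The difference in level between the classes was also present at like depth and like length. At 0.75 to 1.5 times the autosomal reads per row, the median level was 48.5% over 39 scaffolds of the 23-bp class and 76.4% over 186 scaffolds of the 46-bp class. At 3 to 10 times that depth, the medians were 49.1% (283 scaffolds) and 78.9% (56 scaffolds). Among scaffolds whose last row lay at 1 to 2 kb, they were 49.0% (390 scaffolds) and 77.4% (202 scaffolds). Among scaffolds in neither class, the median at these depths was 66.6% and 67.5%.

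**Figure D3:**
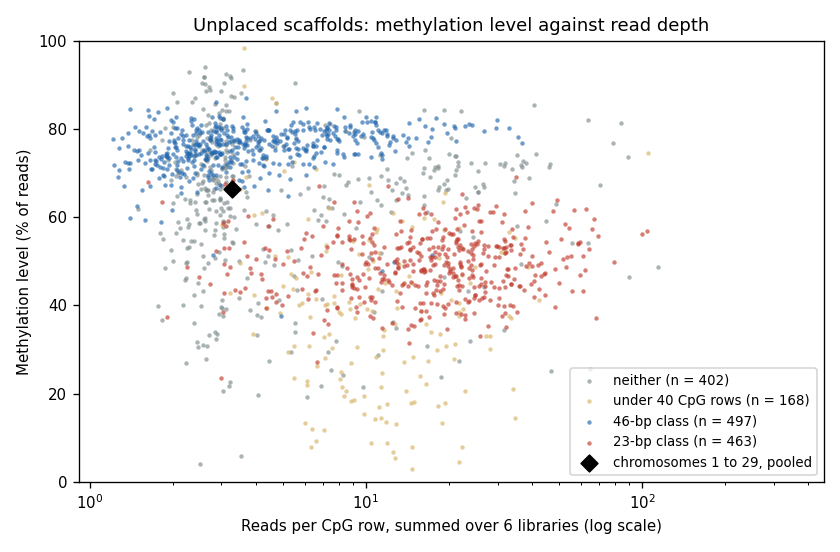
Each point is 1 of 1530 unplaced scaffolds, placed by its reads per CpG row over 6 libraries (log scale) and its pooled methylation level in percent, and coloured by CpG spacing class, with the pooled autosomes as a diamond. The 23-bp class has a median level of 49.1% over a wide range of depths, and the 46-bp class lies in a band with a median of 76.5%.

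Single CpG rows showed how these levels were made up. Among rows with at least 20 reads over the 6 libraries, 81.8% of 11305 rows of the 23-bp class had a level between 20% and 80%, 7.67% lay under 20% and 10.5% at 80% or more. In the 46-bp class, 56.1% of 7450 rows were at 80% or more and 0.846% under 20%. On autosomes, the share between 20% and 80% was 58.8% of 231463 rows at this depth. Intermediate levels of the 23-bp class were therefore present at single rows and not only as a mean over high and low rows. The reads of 1 row can come from more than 1 copy of a repeat, and the part of this was not tested. Over 2781 CpGs of the 23-bp class, the mean level was 49.6% ± 0.574 (SD, n = 6 libraries) on the first cytosine and 49.2% ± 0.719 on the second. Within a single CpG, the median absolute difference between its cytosines was 7.21 points in this class and 5.95 points on autosomes.

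The same rule was applied to autosomal tiles of 2 kb with at least 40 rows. Of 254757 tiles, 1.56% had the 23-bp ratio and 1.38% the 46-bp ratio, with median levels of 72.6% and 75.0% against 75.3% in all other tiles. Few of these tiles had strong spacing. When at least 30% of rows had to be paired, 263 tiles remained at 23 bp, and they had a median level of 51.1% (quartiles 45.2% and 56.3%) and 33.8 reads per row. At 46 bp 72 tiles remained, with a median level of 75.0% and 4.47 reads per row. The median level of the 23-bp tiles was thus nearer to that of the 23-bp scaffolds (49.1%) than to that of the other tiles, whereas the 46-bp tiles had about the median of all other tiles. Pooled over reads, the level was 52.4% in the 23-bp tiles and 50.03% in the scaffolds of that class, and 70.4% and 77.8% at 46 bp. Pooled depths of the scaffold classes were 21.7 and 6.36 reads per row.

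Spacing over longer distances was searched on 359 scaffolds that reached 3 kb and had 100 to 2500 rows. Shares were taken over eligible rows, those far enough from the last row to have a partner at that distance, of which at least 40 were required. At the best distance between 500 and 2500 bp, at least 40% of eligible rows were paired in 66 of 188 scaffolds of the 46-bp class, 3 of 11 of the 23-bp class and 6 of 160 in neither class. These counts take the best of all distances searched, with no expected value, and in the spaced classes pairing at multiples of 23 or 46 bp partly restates the rule. The scaffolds in neither class included NW_003100092.1, the second in number of reads, in which 299 of 377 eligible rows (79.3%) had a row 1678 bp downstream. On NW_003100383.1 and NW_003100360.1 the best distance was 1402 bp (243 of 412 and 221 of 445 eligible rows), and on NW_003100570.1 it was 1405 bp (215 of 381). The last 3 had levels of 69.0%, 64.9% and 71.2% and 14.3 to 18.2 reads per row. In several scaffolds of the 46-bp class, among them NW_003100654.1 and NW_003100685.1, the best distance was 506 bp, a multiple of 46 bp. These scaffolds were chosen after their values were seen.

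The comparison of groups asked whether scaffold methylation differed after 24 h of butyrate. Over all scaffold reads, the controls had levels of 61.3%, 62.5% and 61.1%, and the butyrate libraries 63.2%, 61.8% and 62.0%. Control replicate 2 lay within the butyrate range, so the groups overlapped. The means were 61.6% ± 0.734 (SD, n = 3) and 62.4% ± 0.760, a difference of 0.715 points that was not larger than the spread between replicates (two-sided exact permutation p = 0.3). On lane 6 alone, the difference of butyrate replicate 2 from the control mean was 0.154 points.

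When each scaffold had the same weight, the groups were separated. The unweighted mean level over 1219 scaffolds with at least 20 reads in every library was 59.7% ± 0.338 (SD, n = 3) in control and 60.5% ± 0.172 in butyrate. All 3 butyrate libraries lay above all 3 controls, by 0.886 points on average (two-sided exact permutation p = 0.1, the smallest possible), and within lane 6 the difference was 0.689 points. On autosomes the level was 66.06%, 66.03% and 65.88% in control and 66.65%, 66.46% and 66.62% in butyrate. The scaffold level minus the autosomal level of the same library did not differ between groups beyond the spread, with a difference of 0.130 points (two-sided exact permutation p = 0.5). Its sign turned to -0.239 points on rows with at least 10 reads and to -0.314 points within lane 6.

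The libraries differed in how their scaffold reads fell on the spacing classes. The 23-bp class took 34.1%, 30.4% and 37.9% of scaffold reads in the controls and 29.7%, 34.9% and 35.5% in the butyrate libraries. Control replicate 2 and butyrate replicate 1, with the smallest shares of this class of intermediate level, had the highest level of their group over all scaffold reads. The part of these shares in the overlap of the groups was not tested. Within each class the groups did not overlap, and neither did they over all autosomal reads. In the 23-bp class the level was 49.6%, 49.2% and 49.9% in control and 50.2%, 50.5% and 50.7% in butyrate, a difference of 0.895 points. In the 46-bp class it was 77.3%, 77.4% and 77.8% in control and 78.1%, 77.8% and 78.3% in butyrate, a difference of 0.574 points. In scaffolds of neither class it was 62.1%, 62.7% and 62.5% in control and 63.3%, 62.7% and 63.1% in butyrate, a difference of 0.617 points. Within lane 6 the differences were 0.954, 0.302 and 0.327 points in the 23-bp, 46-bp and neither classes. The gap between the groups was narrow, and butyrate replicate 2 exceeded the highest control by 0.623, 0.0168 and 0.0452 points in the same order. Autosomal 2-kb tiles with neither spacing had 63.6% ± 0.115 (SD, n = 3) in control and 64.3% ± 0.113 in butyrate. Tiles with at least 30% of rows paired at 23 bp had 51.8% ± 0.217 and 53.0% ± 0.355, and those at 46 bp 70.2% ± 0.909 and 70.6% ± 1.57. Differences of this size were thus not particular to the scaffold classes. With every library given the same class composition, the controls had a level of 61.6% ± 0.180 (SD, n = 3) and the butyrate libraries one of 62.3% ± 0.162, with no overlap. That composition was chosen after the data were seen and is given without a test.

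**Figure D4:**
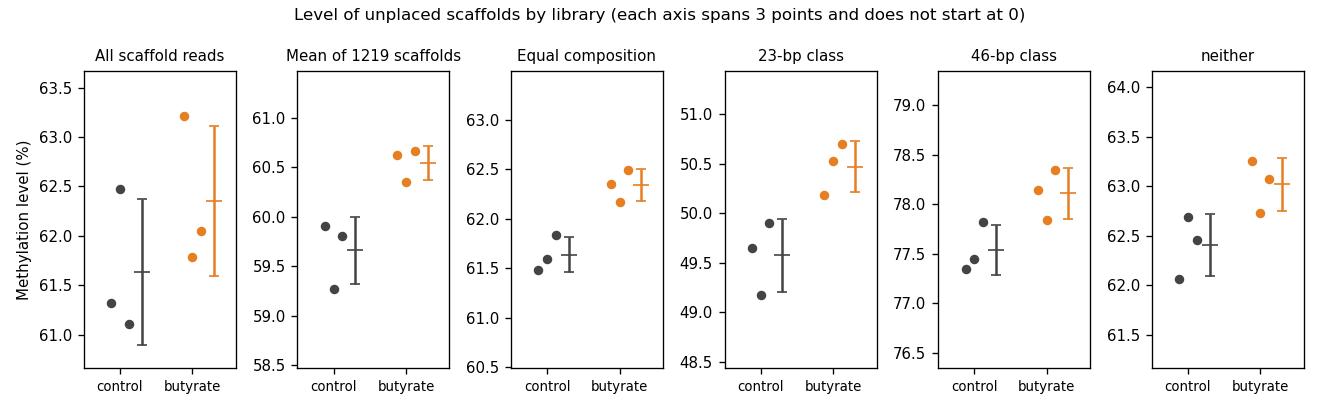
Methylation levels in percent of the 3 control and 3 butyrate libraries are plotted as points, with the group mean and SD beside them, over all scaffold reads, as the mean of 1219 scaffolds, at equal class composition and for each spacing class, on axes that span 3 points and do not start at 0. The groups overlap over all scaffold reads (61.1% to 62.5% against 61.8% to 63.2%) and are separate in the other 5 panels.

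Single scaffolds were tested together with 100-kb bins of the autosomes and X, 27825 features in all, on log2 of methylated over unmethylated reads, each plus 1. None of the 1219 scaffolds tested passed limma at a Benjamini-Hochberg adjusted p of 0.05, and 0% of all features did. At an unadjusted p under 0.05, 46 scaffolds (3.77%) were higher and 17 (1.39%) lower in butyrate, beside 4.3% and 1.51% of all features. The groups did not overlap in 97 scaffolds (7.96%) in the direction of butyrate and in 45 (3.69%) in the other, beside 7.83% and 3.37% of all features. These shares are near the background of all features and are no result about the scaffolds. Of the 1219 scaffolds, 60.9% had a log2 difference above 0, against 59.6% of the bins, and the median log2 difference was 0.06 on scaffolds and 0.04 in bins. When each library was centred on its own median, these shares were 54.8% and 51.1%, and the medians 0.03 and 0.004.

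The scaffolds with the smallest limma p are given as values, since none passed. NW_003100647.1, of the 46-bp class, had levels of 71.6%, 72.0% and 71.0% in control and 83.5%, 77.9% and 83.2% in butyrate (log2 difference 0.81, SE 0.18, limma adjusted p = 0.579). NW_003100263.1, in neither class, had 57.5%, 50.5% and 62.8% in control and 77.5%, 72.0% and 68.9% in butyrate (log2 difference 1.01, SE 0.27, limma adjusted p = 0.663). NW_003099598.1, of the 23-bp class, had 37.5%, 33.1% and 30.2% in control and 44.4%, 50.3% and 43.9% in butyrate (log2 difference 0.76, SE 0.22, limma adjusted p = 0.731). In all 3 the butyrate libraries lay above the controls. In the other direction, NW_003100400.1 had 82.5%, 82.8% and 81.5% in control and 71.7%, 76.1% and 77.5% in butyrate (log2 difference -0.61, SE 0.17, limma adjusted p = 0.663). NW_003100422.1 had 81.1%, 84.0% and 76.8% in control and 75.7%, 61.8% and 70.2% in butyrate (log2 difference -0.86, SE 0.29, limma adjusted p = 0.786). NW_003100266.1 had 89.1%, 75.9% and 90.5% in control and 71.8%, 74.2% and 76.5% in butyrate (limma adjusted p = 0.786), and its groups overlapped. The last 3 scaffolds were all of the 46-bp class. With lane as a covariate, the log2 difference was 0.48 on NW_003100647.1 and -1.37 on NW_003100422.1, and neither passed.

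Windows of 500 bp were tested with logistic regression on CpG rows with at least 10 reads in a library. This test counts each read as independent, so that its p and q values leave out the spread between libraries. Of 8874 windows covered in all 6 libraries, 698 (7.87%) lay on 412 of the scaffolds, although scaffolds held 0.746% of CpG rows. Of these, 8 (1.15%) were called higher and 2 (0.287%) lower in butyrate at q under 0.05 and a difference over 10 points, beside 0.428% and 0.361% of all windows. Groups did not overlap in 50 windows (7.16%) in the higher and 18 (2.58%) in the lower direction, beside 7.6% and 3.09% of all windows. At an unadjusted p under 0.05, the logistic regression gave 97 scaffold windows (13.9%), beside 13.3% of all windows. The 10 called windows lay on 10 scaffolds. They were 5 of 430 tested windows of the 23-bp class (1.16%), 1 of 70 of the 46-bp class (1.43%) and 4 of 173 of neither class (2.31%). The count fell to 0 with a quasi-binomial F test, which allows for spread between libraries and which gave 41 scaffold windows (5.87%) at an unadjusted p under 0.05, beside 5.35% of all windows. With at least 5 reads per row it was 5 (0.359%, beside 0.247% of all windows), and with at least 20 it was 2 (0.772%, beside 1.11%), so that the order of the shares turned. It fell to 1 when the same rows had to reach the minimum in all libraries (0.156%, beside 0.0471%). It was 5 without control replicate 3 (0.709%, beside 0.667% of all windows) and 5 without butyrate replicate 2 (0.695%, beside 0.668%). In these 2 settings the shares were near each other.

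In some called windows the difference depended on which CpG rows were counted. The minimum of 10 reads was asked of each library separately, and in 4 of the 10 windows no row reached it in all 6 libraries. In the window at 1 to 500 of NW_003099416.1, the level was 0%, 8.33% and 21.4% in control and 75%, 79.5% and 72.1% in butyrate (pooled difference 64.2 points, q = 4.20e-09), from 1 to 5 rows and 11 to 61 reads per library. Over all rows of this window, with 98 to 132 reads per library, the level was 48.1%, 53.1% and 57.3% in control and 50.5%, 52.3% and 56.9% in butyrate. The pooled difference was then 0.156 points and the groups overlapped, so that the large difference was not present in the window as a whole. In the window at 3001 to 3500 of NW_003100686.1, the level was 59.3%, 59.3% and 67.7% in control and 83.7%, 94.7% and 83.3% in butyrate (pooled difference 25.4 points, q = 6.10e-06). Over all its rows the level was 61.8%, 65.6% and 71.2% in control and 71.4%, 76.5% and 78.2% in butyrate, a difference of 9.22 points with no overlap.

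In the other 3 named windows, 2, 2 and 4 rows were shared by all libraries. At 1001 to 1500 of NW_003099240.1 the level was 32.1%, 37.8% and 22.9% in control and 62.8%, 45.8% and 44.0% in butyrate (pooled difference 21.2 points, q = 0.0184), and the difference was 17.8 points over all rows. At 1001 to 1500 of NW_003099507.1 it was 46.3%, 36.1% and 36.8% in control and 66.7%, 56.2% and 48.8% in butyrate (pooled difference 15.3 points, q = 0.0495), and the difference was 13.8 points over all rows. The window at 1001 to 1500 of NW_003100159.1 was the one with a lower level after butyrate, at 48.8%, 40.9% and 46.6% in control and 40%, 29.6% and 26.8% in butyrate (pooled difference -12.4 points, q = 0.0447). Over all its rows the difference was -11.1 points. Butyrate and control stayed separate over all rows in these 3 windows. All rows include the reads by which the named windows were chosen, so that this is no separate check. Named windows were chosen for groups without overlap, so that leaving out a library could not turn the direction of the difference. Several calls were lost when rows or libraries were left out. On the shared rows alone, the difference was 18.5 points (q = 0.247) for NW_003099240.1, 10.5 points (q = 0.623) for NW_003099507.1 and -18.2 points (q = 0.0130) for NW_003100159.1. NW_003099240.1 lost its call without control replicate 3 (14.4 points, q = 0.354) or butyrate replicate 1 (16.1 points, q = 0.172). NW_003099507.1 lost it when control replicate 2 or 3 or butyrate replicate 1 or 2 was left out (12.7 to 14.5 points, q = 0.124 to 0.180). NW_003100159.1 lost it when control replicate 1 or 3 or butyrate replicate 2 or 3 was left out (-11.3 to -10.1 points, q = 0.112 to 0.204). In the 5 called windows whose groups overlapped, the differences over all rows were 3.14 to 8.19 points in the 4 higher windows and -0.314 points in the lower one.

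**Figure D5:**
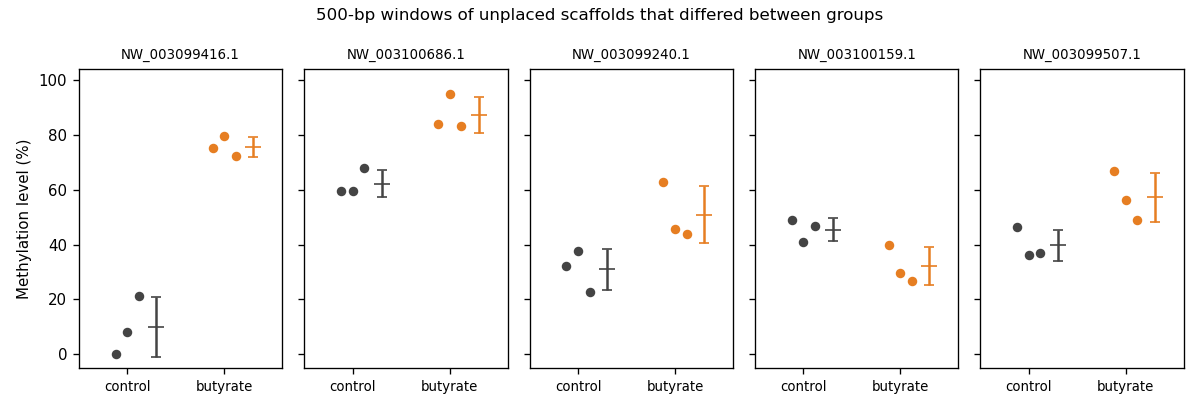
Methylation levels in percent of 3 control and 3 butyrate libraries, with the group mean and SD beside the points, are plotted for the 5 called 500-bp windows whose groups did not overlap, over CpG rows with at least 10 reads in a library. The widest gap, on NW_003099416.1 (9.92% against 75.5%), is the one that closed to 52.8% against 53.2% over all rows of the window.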

How the data were processed

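The deposited values were raw counts of methylated and unmethylated reads per CpG cytosine and strand, which the authors made by trimming with Trim Galore (version 0.4.1 per the labels' processing notes), mapping to UMD3.1.1 and extraction with Bismark. The study gives a rate of unique mapping, but duplicate removal, the bisulfite conversion rate and the handling of WGBS reads that map to several places were not found in the sources used here. Near-identical copies of a repeat cannot be told apart in such counts. The column of methylated counts was recognised from the values. The labels and the study's methods differ in read length and run type.

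The 6 files were joined by sequence and position. Members and lists were chosen with earlier results of these data known. Groups, replicate numbers and lanes came from the labels. Replicate pairs differed beyond counting noise (chi-square over degrees of freedom 1.38 to 1.62 over scaffolds), so 6 libraries were kept. Levels were compared by exact permutation over 10 splits of 3 and 3, and scaffolds with autosomes by sign flips over 6 libraries. Scaffolds and 100-kb bins whose reads reached 20 in each of the libraries were fitted with limma (eBayes, prior variance trended on reads, pseudocount 1). Windows used logistic regression with a likelihood-ratio test and Benjamini-Hochberg adjustment over the genome, in place of SLIM. Named scaffolds were the 4 with most reads, the 3 with the highest and lowest level and reads per row (at least 1000 reads and 20 rows), the 3 with the smallest limma p in each direction, and the 3 nearest to 100 reads on each side. Named windows were up to 4 of the smallest q in each direction with no overlap.

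On simulated binomial counts with 200 changed features, 80.0% of 10-point and 99.5% of 20-point changes were called by limma among 27825 features, with 11 false calls each. Logistic regression recovered 90.0% of changes of 20 points among 8874 windows with 5 false calls, and the quasi-binomial F test 31.0% with 0. The simulated counts had no spread between libraries beyond counting, unlike the data. Changed features were drawn from all features, most of which were not on scaffolds. These rates therefore do not give the power on scaffolds, which was not tested. Alternatives were other read minimums, a pseudocount of 0.5, centring, no variance trend, lane or replicate number in the model, other member rules, 10 density classes and each library left out. Equal class composition, values within lane 6 and windows without a minimum were added after the data were seen. Python 3.11.15, NumPy 2.4.6, SciPy 1.17.1, pandas 2.3.3, Matplotlib 3.10.9, R 4.3.3 and limma 3.58.1 were used. No genome of this build was used, so that no sequence or gene is given.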

Additional observations from a re-analysis of the deposited data

How the results depend on the processing

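The count of 10 called scaffold windows became 5 with at least 5 reads per row (0.359%, beside 0.247% of all windows) and 2 with at least 20 (0.772%, beside 1.11%). It was 1 on the same rows in all libraries (0.156%, beside 0.0471%) and 0 with the quasi-binomial F test (0% of all windows). With each library left out it was 5 to 10. It was 5 without control replicate 3 (0.709%, beside 0.667%) and 5 without butyrate replicate 2 (0.695%, beside 0.668%). It was 10 without butyrate replicate 3 (1.36%, beside 0.85%). The called window of NW_003099355.1 turned to 0.237 points without butyrate replicate 2 (range -25.4 to 0.237 points). The group difference in scaffold minus autosomal level turned to -0.239 points on rows with at least 10 reads, -0.0195 points on rows read in all libraries and -0.314 points within lane 6, and ranged from -0.265 to 0.529 points with each library left out. The difference in the share of reads ranged from -0.0795 to 0.0163 points, turning sign without control replicate 3. With 5 libraries the sign-flip test cannot go below 0.0625, and the scaffold minus autosomal level was then -4.46 to -4.19 points, the matched difference 0.992 to 1.24 points and the log2 ratio of reads per row 1.40 to 1.43. The difference in level over all scaffold reads was 0.283 to 1.13 points and that of the scaffold mean 0.693 to 1.01 points with each library left out. The limma count was 0 under every alternative run, with 25 to 118 scaffolds at an unadjusted p under 0.05. The 25, found where each library had 100 or more reads, were 3.52% beside 5.84% of the bins, and the 118, without a variance trend, were 9.68% beside 5.45%.

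Replicate numbers did not mark pairs: deviations of same-numbered libraries had correlations of -0.0153 to 0.0199 over 1219 scaffolds. With the replicate block, limma called 0 scaffolds and the logistic regression 8 scaffold windows (1.15%, beside 0.699% of all windows). The blocked differences of 0.715, 0.886 and 0.130 points in level had two-sided exact sign-flip permutation p of 0.5, 0.25 and 0.75 over 3 pairs. For the -0.0431 points in the share of reads, the two-sided exact sign-flip permutation p was 0.5, and 0.25 is the smallest possible. The blocked q rose above 0.05 for the windows of NW_003099240.1 (0.0522), NW_003099712.1 (0.127) and NW_003099355.1 (0.111). The limma difference of single scaffolds had a median SE of 0.22 on the log2 scale, against 0.16 in bins.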

Other observations

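The 1239 scaffolds under 100 reads held 36047 reads in all, with a pooled level of 50.3% and 2.32 reads per row. Just inside the minimum, NW_003098988.1 and NW_003099800.1 (100 reads each) and NW_003098659.1 (101 reads) had pooled levels of 71.0%, 79.0% and 74.3%. Just outside, NW_003099052.1, NW_003099349.1 and NW_003099401.1 (99 reads each) had 83.8%, 36.4% and 65.7%.

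In the 298 scaffolds that reached 5 kb, the level was 73.1% ± 0.958 (SD, n = 6) in the first or last 500 bp, 67.0% ± 0.595 at 500 to 1000 bp from an end, 70.6% ± 0.769 at 1000 to 2500 bp and 69.4% ± 0.479 farther inside. The outermost 500 bp lay above the inside by 2.34 to 4.69 points in each library, while the next 500 bp lay below it on average. In the same order, reads per row were 5.69, 6.73, 5.76 and 3.65. These distances were chosen after the data were seen and are given without a test.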
